A study of Mus musculus with 5 samples.

Results

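Major histocompatibility complex (MHC) class I was followed here through 10 mouse genes: 8 heavy chain genes (H2-K1, H2-D1, H2-Q4, H2-Q6, H2-Q7, H2-T22, H2-T23 and H2-M3), the light chain gene B2m and the transactivator gene Nlrc5. Each was taken from the authors' deposited table by its symbol, alone or within a row of joined symbols, and all 10 were found among 24982 rows and tested by the authors' Cuffdiff comparison, which tested 12311 rows. The RNA came from macrophages of 9609 tumors, an MCA fibrosarcoma line. Of the libraries, 3 were labelled MEK1-hi (MEK1-hi genotype, MEK1-hi exosomes). Another 2 were labelled MEK1-low (MEK1-low genotype, MEK1-low (GFP) exosomes). Genotype and exosome label coincide in every library, so their parts in a difference cannot be told apart. Exosomes are small vesicles released by cells, and MEK1 is a kinase of the ERK signalling cascade. Neither mouse strain, sex or age, nor the way the macrophages were isolated, nor whether libraries came from separate animals was given in the sources used here. The p-values therefore measure only the spread between these libraries, which may be technical. The design asks how the macrophage transcripts differ between the groups.

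A class I molecule is a classical or nonclassical heavy chain bound to beta-2-microglobulin. Classical chains carry peptides made by the proteasome and pumped into the endoplasmic reticulum by the TAP transporter, and show them to CD8 T cells. Nonclassical chains have narrower tasks, such as signalling to NK cells or showing bacterial peptides. Interferon-gamma acts through IRF1 and NLRC5, among others, to raise transcription of these genes.

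All 10 genes had higher values in MEK1-hi than in MEK1-low macrophages, and 1 of them, H2-T23, passed the authors' test. The values in the authors' deposited table are FPKM (fragments per transcript length, scaled to the mapped fragments of the library), 1 pooled value per group with no spread, so overlap between libraries cannot be read from them. Across the 10 genes the fold change (MEK1-hi over MEK1-low) ran from 1.24 to 2.10, with a median log2 fold change of 0.61. Over the 11350 tested rows that were above 0 in both groups and reached an FPKM of 1 in at least one, the median was -0.02. Of those rows, 11.5% had a log2 fold change at or above that of H2-M3, the lowest of the 10. A call here is a Cuffdiff q under 0.05, where q is the p adjusted over all tested rows by the Benjamini-Hochberg method. By that rule 1 of 10 was called higher and 0 lower, against 0.999% of all tested rows called higher and 1.32% called in either direction. At an unadjusted p under 0.05, 5 of the 10 were higher and 0 lower, beside 3.5% of all tested rows higher and 2.58% lower. With q under 0.1 the count was 2 of 10 higher and 0 lower, against 1.17% of rows higher, 0.439% lower and 1.61% either way. With q under 0.01 it was 0 of 10, against 0.552% higher, 0.187% lower and 0.739% either way. When the adjustment was run only over rows reaching 1 FPKM, it was 1 of 10 higher, against 1.15% higher, 0.37% lower and 1.52% either way.

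**Figure D1:**
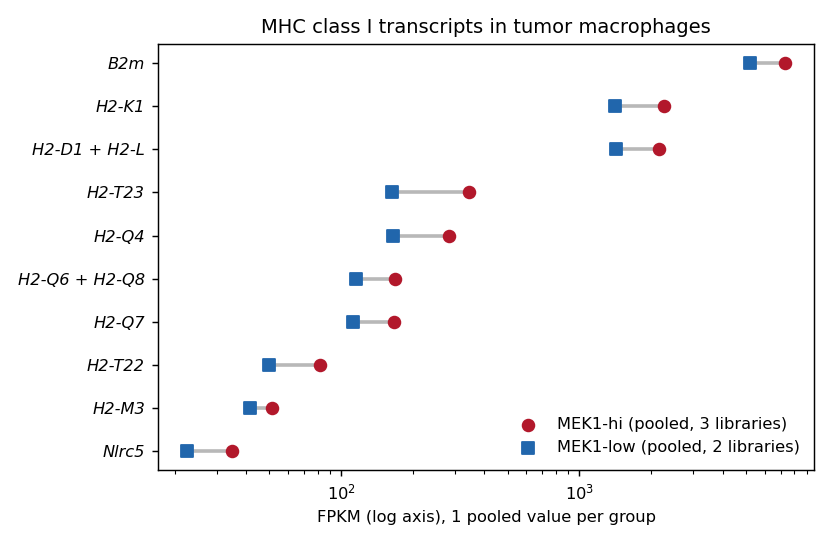
FPKM of the 10 class I genes on a log axis, with 1 pooled value for MEK1-hi (red circles) and 1 for MEK1-low (blue squares), joined by a grey line. Every red circle lies to the right of its blue square, from Nlrc5 (34.8 FPKM in MEK1-hi, 22.6 in MEK1-low) to B2m (7276 FPKM in MEK1-hi, 5202 in MEK1-low).

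Nearly every nucleated cell type carries class I, so the makeup of the samples bears on these values, and in bulk RNA fewer cells of a type and less RNA per cell cannot be told apart. All 12 macrophage markers were present in both groups, from 23.1 FPKM in MEK1-hi and 25.2 FPKM in MEK1-low upwards, and 0 were called by Cuffdiff (1 lower at an unadjusted p under 0.05). Their summed FPKM was 19462 in MEK1-hi and 16773 in MEK1-low, a sum set mostly by Lyz2 (6372 FPKM in MEK1-hi, 4999 in MEK1-low), C1qa, C1qb and C1qc. Of the 12, 7 were above 0 and 5 below, with a median log2 fold change of 0.14. Below 0 were Csf1r (-0.11), Cd68 (-0.08), Itgam (-0.22), Mertk (-0.13) and Mrc1 (-0.73). Monocyte markers summed to 360 FPKM in MEK1-hi and 216 in MEK1-low (2 of 6 called higher), a sum set mostly by Plac8 (217 FPKM in MEK1-hi, 111 in MEK1-low). Of the 6, 5 were above 0 and 1 was below. The latter was F13a1 (14.2 FPKM in MEK1-hi, 26.3 in MEK1-low), not called by Cuffdiff (p = 0.00185, q = 0.109 in the authors' deposited table). Dendritic cell markers summed to 59.96 FPKM in MEK1-hi and 48.2 FPKM in MEK1-low (2 of 8 called higher). The dendritic cell sum rests mostly on Ccr7 (32.1 FPKM in MEK1-hi, 26.7 in MEK1-low) and hides larger differences in both directions. Clec9a (5.58 FPKM in MEK1-hi, 0.931 in MEK1-low; q = 0.00676) and Xcr1 (4.17 in MEK1-hi, 1.53 in MEK1-low; q = 0.0163) were called higher in the authors' deposited table. Flt3 (log2 1.05, q = 0.168) and Cd209a (log2 -1.06, q = 0.274) were not called there. Fibroblast and fibrosarcoma markers summed to 1122 FPKM in MEK1-hi and 1713 in MEK1-low, with 11 of 11 below 0 and 2 called lower. NK cell markers summed to 15.5 FPKM in MEK1-hi and 6.08 in MEK1-low, with 6 of 8, among them Ncr1, Klrb1c and Eomes, under 1 FPKM in both groups. T cell markers summed to 31.7 FPKM in MEK1-hi and 34.9 in MEK1-low, a sum set mostly by Cd4 (19.3 FPKM in MEK1-hi, 27.8 in MEK1-low), while 5 of 7 were above 0 with a median log2 fold change of 0.82. Among them were Cd3e (0.97), Cd3d (1.08), Cd3g (0.82) and Cd8a (1.32, p = 0.0047 and q = 0.202 from Cuffdiff in the authors' deposited table). B cell markers summed to 9.59 FPKM in MEK1-hi and 8.57 in MEK1-low. Neutrophil markers summed to 63.4 FPKM in MEK1-hi and 56.1 in MEK1-low, a sum set mostly by Csf3r (36.6 FPKM in MEK1-hi, 26.2 in MEK1-low). Endothelial markers summed to 10.4 FPKM in MEK1-hi and 9.999 in MEK1-low. The medians went the other way from these sums. Median log2 was -0.13 for neutrophil markers (2 tested rows above 0, 2 below) and -0.11 for endothelial markers (1 above, 3 below). None of these 4 lists had a gene called by Cuffdiff, nor had the NK cell list; at an unadjusted p under 0.05 they had 1, 0, 1, 0 and 3 higher and 1, 0, 1, 0 and 0 lower. The part of these cells in the class I values was not tested.

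The classical heavy chain genes were abundant and higher in MEK1-hi, without passing the test. In the authors' deposited table, H2-K1 (mm10 chromosome 17, 33996012 to 34000347) had 2269 FPKM in MEK1-hi, against 1414 FPKM in MEK1-low. Its log2 fold change was 0.68, with a Cuffdiff statistic of 1.27, p = 0.0543 and q = 0.85 in the authors' deposited table. For H2-D1, the table holds a row that names H2-D1 and H2-L together (chromosome 17, 35263094 to 35267497), so its value cannot be split between them. That row of the authors' deposited table had 2156 FPKM in MEK1-hi and 1421 FPKM in MEK1-low (log2 fold change 0.60, q = 0.942). The 2 classical rows thus stood at nearly the same level in each group and differed between groups by nearly the same factor. Together they made up 80.2% of the summed FPKM of the 8 heavy chain rows in MEK1-hi and 81.4% in MEK1-low.

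H2-T23, which encodes the Qa-1 chain that shows leader peptides of other class I molecules to CD94/NKG2 receptors of NK cells, rose in MEK1-hi. The authors' deposited table lists H2-T23 at 343 FPKM in MEK1-hi and 163 FPKM in MEK1-low (fold change 2.10, log2 1.07, statistic 2.25, p = 0.00035, q = 0.0315). Its share of the summed heavy chain FPKM was 6.22% in MEK1-hi and 4.69% in MEK1-low. H2-T23, H2-T22 and H2-T24 are given the same locus in the table (chromosome 17, 35994504 to 36042742). H2-T22, whose product is recognised by some gamma-delta T cells, had 81.5 FPKM in MEK1-hi and 49.8 FPKM in MEK1-low in the authors' deposited table (log2 0.71). Its statistic was 0.874 and its q 0.9998, while H2-Q4, with a log2 fold change of 0.78, had a statistic of 2.03. H2-T24, not one of the 10, had 13.2 FPKM in MEK1-hi and 11.2 FPKM in MEK1-low in the authors' deposited table (log2 0.23, q = 0.9998). The call of H2-T23 depended on the source of p: with p taken from the deposited statistic and a normal distribution, none of the 10 genes was called, and 15 of 12306 rows (0.122%) were called in all (0.106% higher, 0.0163% lower).

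The genes of the Q region, whose nonclassical chains include the Qa-2 antigens, were higher by similar amounts. H2-Q4 (chromosome 17, 35379617 to 35384674) came next after H2-T23 by q, with 284 FPKM in MEK1-hi and 165 FPKM in MEK1-low in the authors' deposited table (p = 0.00125, q = 0.081). H2-Q7 (chromosome 17, 35439155 to 35443773) had 166 FPKM in MEK1-hi and 112 FPKM in MEK1-low there (log2 0.57, q = 0.441). H2-Q6 is joined with H2-Q8 in a row of the authors' deposited table (chromosome 17, 35424847 to 35430055) with 168 FPKM in MEK1-hi and 115 FPKM in MEK1-low (log2 0.54, q = 0.618). The H2-Q6 and H2-Q7 rows were close to each other in level and in fold change. H2-M3 (chromosome 17, 37270234 to 37274485), which shows formylated bacterial peptides, had the smallest difference of the set. It had 51.3 FPKM in MEK1-hi and 41.3 FPKM in MEK1-low in the authors' deposited table (log2 0.31, p = 0.196, q = 0.9998).

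The light chain was higher by a smaller factor than the heavy chains together. B2m (locus on chromosome 2, 122120108 to 122186189, which also spans Patl2 and Trim69) had 7276 FPKM in MEK1-hi and 5202 FPKM in MEK1-low in the authors' deposited table (log2 0.48, p = 0.202, q = 0.9998). By FPKM it ranked 6th among all tested rows in MEK1-hi and 3rd in MEK1-low. The summed FPKM of the 8 heavy chain rows was 5518 in MEK1-hi and 3481 in MEK1-low, a ratio of 1.59. B2m stood at 1.32 times that sum in MEK1-hi and 1.49 times in MEK1-low. Whether the heavy and light chains differed in their change was not tested, since the table has no values per library.

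Nlrc5, the transactivator that binds class I promoters through other factors, had the lowest level of the 10. In the authors' deposited table, Nlrc5 (chromosome 8, 94472763 to 94527272) had 34.8 FPKM in MEK1-hi and 22.6 FPKM in MEK1-low (log2 0.62, statistic 1.68, p = 0.008, q = 0.284). Its log2 fold change was near the median of the set.

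The order of the levels was the same in both groups except among neighbours. In MEK1-hi it ran from B2m through H2-K1, the H2-D1 row, H2-T23, H2-Q4, the H2-Q6 row, H2-Q7, H2-T22 and H2-M3 to Nlrc5. In MEK1-low the H2-D1 row stood just above H2-K1 and H2-Q4 just above H2-T23. Without a spread per group, it cannot be said which neighbours differ. Genes near H2-K1 by level were sought among tested rows with 1 symbol, by the distance over the 2 group values of log2 FPKM. The 3 nearest were Cst3 (2222 FPKM in MEK1-hi, 1628 in MEK1-low), Itm2b (1880 in MEK1-hi, 1581 in MEK1-low) and Fcer1g (1812 in MEK1-hi, 1392 in MEK1-low), all in the authors' deposited table. With only 2 values per gene, this likeness covers little beyond level.

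H2-K1, H2-D1 and B2m lie in a range of levels where Cuffdiff made no call. Of the 43 tested rows with a mean FPKM of 1000 or more, Cuffdiff called 0, against 1.32% of all tested rows. With only 43 rows, 0 calls is near that share, and whether level affects the calls was not tested. Of the 43, 5 had an unadjusted Cuffdiff p under 0.05. Between a mean FPKM of 100 and 1000, 21 of 716 rows were called (2.93%). Among rows with a log2 fold change from 0.4 to 1, 11 had a mean FPKM of 1000 or more and 75 a mean of 100 to 1000. The median Cuffdiff p in the authors' deposited table was 0.106 for the 11 and 0.0323 for the 75. Genes of the set enter both medians: H2-K1, the H2-D1 row and B2m the first, H2-Q4, the H2-Q6 row and H2-Q7 the second. H2-K1 ranked 5th and the H2-D1 row 6th by log2 fold change among the 43 abundant rows, behind the class II genes H2-Ab1, H2-Eb1 and H2-Aa and the chemokine gene Ccl8. B2m ranked 10th. The median log2 fold change of the 43 was 0.20, with 32 of them above 0.

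**Figure D2:**
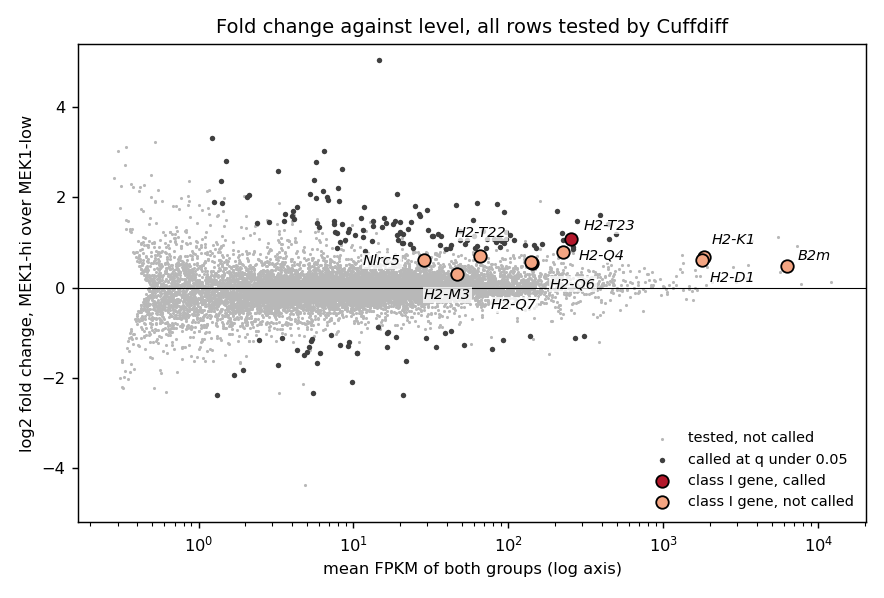
Log2 fold change (MEK1-hi over MEK1-low) against the mean FPKM of both groups on a log axis, for the tested rows above 0 in both groups (grey not called, black called) and the 10 class I genes (large circles, red for the called H2-T23). All 10 lie above 0, between 0.31 and 1.07. At a mean FPKM of 1000 or more, 0 of 43 rows are called, near the 1.32% of all tested rows.

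Like sequences between class I genes limit how far single rows can be read. For each gene, every stretch of 100 bases, the read length per the labels, was taken from its protein-coding transcripts in GENCODE M21 and looked up, on the same strand, in the transcripts of all types of all other genes. H2-Q7 shared 17.2% of its stretches with other genes, H2-T22 12.4% and H2-Q6 10.8%. The largest partners were H2-Q6 for H2-Q7 (9.34% of its stretches), H2-Q7 for H2-Q6 (8.36%) and H2-T10 for H2-T22 (8.57%). H2-T23 shared 7.28%, H2-D1 4.09% and H2-Q4 2.66%. For H2-K1, H2-M3, B2m and Nlrc5 the share was 0. The values of H2-Q6, H2-Q7 and H2-T22 are therefore uncertain, since the authors' read assignment could move reads between copies. To a lesser degree this also holds for H2-T23, the called gene, and for H2-D1 and H2-Q4. Only exact matches were counted, so stretches that differ by a few bases are not in these shares. Class I genes also differ between mouse strains. The effect of such differences on mapping to mm10 was not tested.

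The genes of the set differed between groups in the same direction, and their promoters are shown so that the elements known for class I control can be read. RefSeq's table (GRCm38.p6, the same assembly as mm10) held a promoter for 9 of the 10 genes, all but Nlrc5, from 250 bases before to 50 after the start. The motifs were searched on both strands by their exact letters. They were the interferon-stimulated response element core GAAANNGAA, the same core in its other form GAANNGAAA (added after the letters were seen), the gamma-activated site TTCNNNGAA, a kappa B site GGGGATTCC, the X2 or CRE core TGACG and the Y box ATTGG. The 2 forms of the interferon core can overlap each other. Up to 150 bases are printed from 40 bases before the first interferon core. Capitals mark these motifs, and matches outside the printed stretch are counted but not shown. The first pair are the classical genes, H2-Q4 stands for the Q region, H2-T23 is the called gene, H2-M3 had the smallest difference, and B2m lies outside the MHC.
H2-K1 (chr17:34000348-34000477, minus strand): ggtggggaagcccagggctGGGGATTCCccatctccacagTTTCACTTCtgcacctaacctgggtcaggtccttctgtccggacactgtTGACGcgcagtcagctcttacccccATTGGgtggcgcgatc
H2-D1 (chr17:35262904-35263053, plus strand): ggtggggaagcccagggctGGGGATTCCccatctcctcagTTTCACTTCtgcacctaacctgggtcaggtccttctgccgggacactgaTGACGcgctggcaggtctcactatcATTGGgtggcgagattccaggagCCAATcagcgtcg
H2-Q4 (chr17:35379424-35379573, plus strand): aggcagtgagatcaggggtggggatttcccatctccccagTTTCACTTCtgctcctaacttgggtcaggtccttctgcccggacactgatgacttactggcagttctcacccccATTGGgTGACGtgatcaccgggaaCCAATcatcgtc
H2-T23 (chr17:36032715-36032864, minus strand): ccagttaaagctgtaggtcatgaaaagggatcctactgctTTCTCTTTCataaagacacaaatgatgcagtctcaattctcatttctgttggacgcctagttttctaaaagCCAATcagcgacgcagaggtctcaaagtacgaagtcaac
H2-M3 (chr17:37270093-37270233, plus strand): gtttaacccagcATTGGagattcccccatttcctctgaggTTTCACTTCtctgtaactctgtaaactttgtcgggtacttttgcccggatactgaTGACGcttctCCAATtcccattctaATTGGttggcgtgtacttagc
B2m (chr2:122147508-122147657, plus strand): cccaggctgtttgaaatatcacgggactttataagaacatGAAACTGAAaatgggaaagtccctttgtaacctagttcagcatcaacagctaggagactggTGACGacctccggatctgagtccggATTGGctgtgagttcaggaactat

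The form searched first, GAAANNGAA, was in 3 of 9 promoters (H2-T22, H2-T23 and B2m), against 8.57% of the 27025 promoters of the table. The form added after the letters were seen, GAANNGAAA, was in the other 6 (7.56% of all). Its 6 matches have the same letters, TTTCACTTC, in genes of like sequence, so they are not independent of each other. All 9 held one form or the other (14.9% of all), but that count rests on a form chosen from these same promoters. The Y box was in all 9 (37.9% of all) and TGACG in 7, missing from H2-T23 and H2-Q6 (21.0% of all). These counts take no account of position. In H2-K1, H2-D1, H2-Q7, H2-M3 and B2m, a TGACG lay before an ATTGG. In H2-Q4 the TGACG before the start (from base -73) lay after the ATTGG (from -79). In H2-T22 it (from -22) lay after the last Y box letters (from -63). The 7 are thus counts of letters, not of X2 elements. The kappa B letters were in H2-K1, H2-D1, H2-Q6 and H2-Q7 (0.259% of all), and TTCNNNGAA in H2-M3 (8.47% of all). The kappa B matches are also in genes of like sequence, so they are not independent of each other. H2-T23, the gene that was called, thus held an interferon core and a Y box, but neither the kappa B letters nor TGACG in this window. H2-M3, with the smallest difference, held an interferon core, TGACG and a Y box. A match is a description of letters, not a bound site, and missing letters say nothing of a factor's binding.

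The other genes of the class I pathway were read from 8 lists of 85 tested rows, of which 15 were called higher and 0 lower, against 0.999% and 0.325% of all tested rows. At an unadjusted p under 0.05, 32 were higher and 0 lower. Peptide transport and loading genes had 3 of 12 called higher (median log2 0.17). They were Tap1 and Tap2, the subunits of the peptide transporter, and Tapbpl, a peptide editor. Tap1 had 147 FPKM in MEK1-hi and 71.1 FPKM in MEK1-low in the authors' deposited table (log2 1.05, q = 0.00676). Tap2 had 92.8 FPKM in MEK1-hi and 50.7 FPKM in MEK1-low there (log2 0.87, q = 0.0242), and Tapbpl 31.4 FPKM in MEK1-hi and 17.1 FPKM in MEK1-low (log2 0.87, q = 0.0369). Tapbp, the tapasin gene that bridges transporter and heavy chain, had 268 FPKM in MEK1-hi and 183 FPKM in MEK1-low in the authors' deposited table, and was not called (log2 0.55, q = 0.683). Of the general chaperones and folding enzymes of the list, log2 fold changes were -0.14 for Ganab, -0.11 for Canx, 0.05 for Hspa5, 0.12 for Calr and 0.21 for Pdia3, none called.

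The immunoproteasome, which cuts the peptides, had 3 of 6 genes called higher and 0 lower (median log2 0.80). In the authors' deposited table Psmb8 had 337 FPKM in MEK1-hi and 188 FPKM in MEK1-low (q = 0.0369), and Psmb9 193 FPKM in MEK1-hi and 99.9 FPKM in MEK1-low (q = 0.0118). Psme2, an activator subunit, had 16.7 FPKM in MEK1-hi and 5.76 FPKM in MEK1-low there (q = 0.0344). Its level was far under that of its partner Psme1 (300 FPKM in MEK1-hi, 178 in MEK1-low), and it has a near-identical copy, so its value is uncertain. Psmb10 had 157 FPKM in MEK1-hi and 95.0 FPKM in MEK1-low in the authors' deposited table and was not called (q = 0.166).

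Among 25 regulators of class I transcription, 4 were called higher and 0 lower (median log2 0.17). Irf1, which binds the interferon core, had 305 FPKM in MEK1-hi and 146 FPKM in MEK1-low in the authors' deposited table (log2 1.06, q = 0.0163). Irf8, a lineage factor not of macrophages alone, had 114 FPKM in MEK1-hi and 61.6 FPKM in MEK1-low there (log2 0.89, q = 0.0344). Ciita, the class II counterpart of Nlrc5, had 16.4 FPKM in MEK1-hi and 6.79 FPKM in MEK1-low in the authors' deposited table (log2 1.27, q = 0.00676). Whether Ciita and Nlrc5 differed in their change was not tested. Rfx5, a subunit of the complex through which both act, had 6.03 FPKM in MEK1-hi and 4.42 FPKM in MEK1-low (log2 0.45, q = 0.9998 in the authors' deposited table).

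Other molecules of the class I kind gave 0 calls. Of 4 further class I chains tested by Cuffdiff, 0 were called and 1 was higher at an unadjusted p under 0.05. H2-T10 had 3.997 FPKM in MEK1-hi and 2.38 FPKM in MEK1-low, and H2-Q5 43.0 FPKM in MEK1-hi and 31.3 FPKM in MEK1-low, in the authors' deposited table. Another 12 rows of that list were not tested by Cuffdiff and lay under 1 FPKM in both groups. Of 7 class I-like molecules encoded outside the MHC, Cuffdiff called 0 (1 at an unadjusted p under 0.05, Procr, higher), and their median log2 fold change was -0.12. Procr, a protein C receptor with a class I fold, had 42.1 FPKM in MEK1-hi and 25.0 FPKM in MEK1-low in the authors' deposited table (q = 0.176). Cd1d1, which shows lipids to NKT cells, had 2.66 FPKM in MEK1-hi and 3.34 FPKM in MEK1-low there (log2 -0.33). Of 10 genes of class I turnover and trafficking, Cuffdiff called 0, and 0 had an unadjusted p under 0.05. Marchf1, a ubiquitin ligase, had 12.3 FPKM in MEK1-hi and 9.10 FPKM in MEK1-low, and Sppl2a, an intramembrane protease, 50.8 FPKM in MEK1-hi and 43.5 FPKM in MEK1-low, in the authors' deposited table.

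Receptors that bind class I or its relatives had 3 of 12 tested rows called higher and 0 lower (median log2 1.04). Klra2, of the Ly49 receptor family, had 141 FPKM in MEK1-hi and 62.5 FPKM in MEK1-low in the authors' deposited table (log2 1.17, q = 0.00676). Klra17, of the same family, had 9.28 FPKM in MEK1-hi and 1.77 FPKM in MEK1-low there (log2 2.39, q = 0.00676). Klrk1, the NKG2D receptor of NK and T cells, had 18.1 FPKM in MEK1-hi and 5.27 FPKM in MEK1-low in the authors' deposited table (log2 1.78, q = 0.00676). The class II chain genes had 2 of 9 called higher, H2-DMb1 (log2 1.08) and H2-Oa (log2 1.21), with a median log2 fold change of 1.00, against 0.61 for the class I set. That difference between the classes was not tested.

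**Figure D3:**
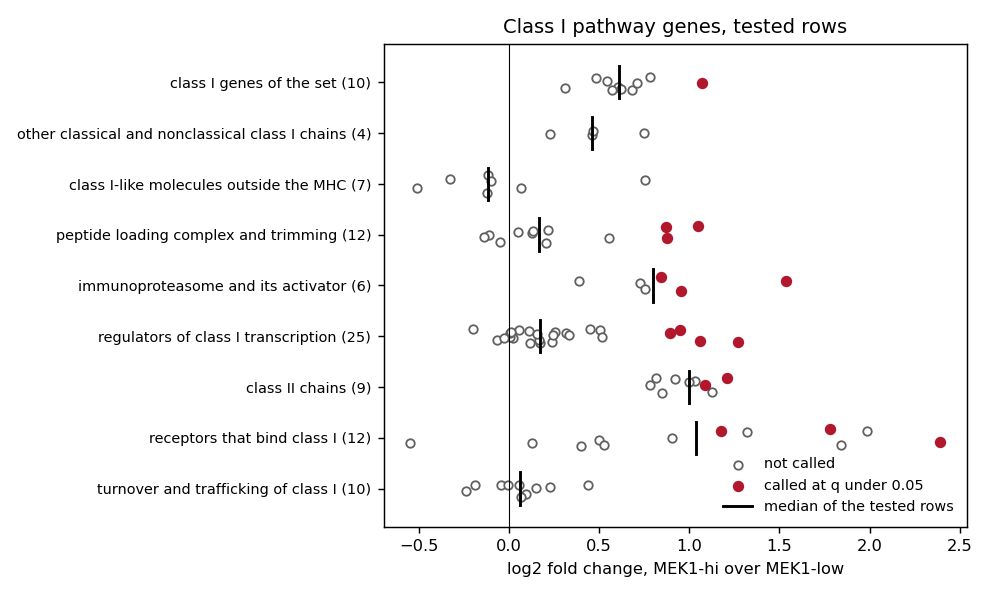
Log2 fold change (MEK1-hi over MEK1-low) of the tested rows of the 10 class I genes and of 8 pathway lists, 1 circle per row, red where called, with the median as a bar and the number of tested rows in brackets. The class I genes sit between 0.31 and 1.07, while the list medians run from -0.12 for class I-like molecules outside the MHC to 1.04 for receptors.

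The MHC itself gave a local comparison for the heavy chain genes, as a description with no test. From the start of H2-K1 to the end of H2-M3, a span of 3278 kb, 98 rows were tested and reached 1 FPKM. The 8 heavy chain rows had a median log2 fold change of 0.64, with 8 of 8 above 0. The 4 genes of peptide transport and the proteasome in the span (Tap1, Tap2, Psmb8 and Psmb9) had a median of 0.91. For the 74 remaining rows, outside the class I, class II and peptide transport or proteasome groups, the median was 0.10. Of these, 47 were above 0 and 4 were called higher, against 0.999% of all tested rows called higher. H2-T-ps (log2 1.00, Cuffdiff q = 0.833) was counted among the 74.

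**Figure D4:**
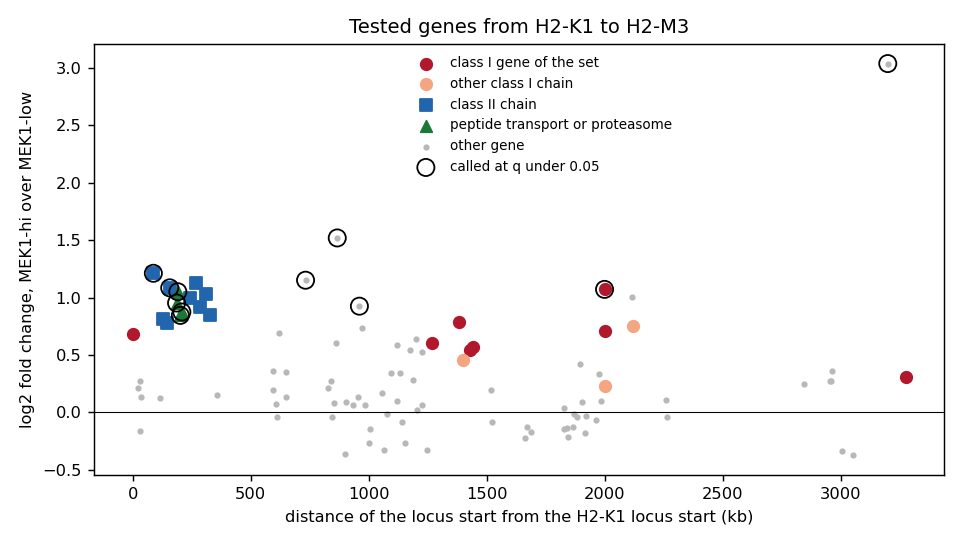
Log2 fold change (MEK1-hi over MEK1-low) of the 98 tested rows between H2-K1 and H2-M3, against the distance of each locus from the H2-K1 locus in kb, with rings around called rows. The class I, class II and peptide transport genes lie above 0, and most other genes lie near 0 (median 0.10).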

How the data were processed

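Poly(A) RNA of 3 MEK1-hi and 2 MEK1-low macrophage libraries was sequenced, per the labels, from stranded libraries (750 ng, RNA integrity above 8.0) as paired reads of 100 bases. FastQC 0.73, TopHat, Cufflinks, Cuffdiff and mm10 are named per the submitters' processing notes, but no source used here gives the annotation, the strand setting or the depth reached. What the authors deposited is 1 table from Cuffdiff: a pooled FPKM per group, a test statistic (a score deposited by the authors), and p-values and q-values as deposited. Its GFP exosome group was taken as MEK1-low, since only those labels name GFP. Refitting the Benjamini-Hochberg adjustment over all tested rows gave the deposited q within 0.001 in every row. No count model could be run on FPKM, and no interval or floor is given because the depth is unknown from the table.

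Computed here were log2 fold changes from the FPKM, counts at q under 0.05, sums, motif matches and shared transcript stretches. The adjustment code was tested on simulated data. Starts of loci were written 1-based, since 14438 of 24385 rows had the RefSeq start after adding 1 and 720 without it. Loci and promoters are on mm10. Every one of the 10 genes is named. In each pathway list the called members are named, or with none called the 2 with the largest absolute statistic, plus Tap1, Tap2, Tapbp, Psmb8, Psmb9, Psmb10, Irf1, Ciita and Rfx5, while 1 called regulator is not reported here. Psme1, Ganab, Canx, Hspa5, Calr, Pdia3, H2-T24 and the single marker genes were named after their values were seen. The genes and lists were chosen with earlier results of these data known. Of the list symbols, 8 matched no row and were not analysed here. Tools were Python 3.11.15 with matplotlib 3.10.9, scipy 1.17.1, pandas 2.3.3 and numpy 2.4.6.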

Additional observations from a re-analysis of the deposited data

How the results depend on the processing

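All 10 genes stayed above 0 under a pseudocount of 1, which cannot change a direction. They also did with equal FPKM sums over tested rows and with equal FPKM medians. Those scalings shift every log2 fold change by -0.13 and 0.01. Both shifts are smaller than the lowest fold change of the 10 (log2 0.31, H2-M3), so these settings could not have changed a direction. The median log2 fold change of the set, 0.61, was 0.60 with the pseudocount, 0.48 with equal sums, 0.62 with equal medians, 0.65 over rows that name 1 symbol and 0.59 without H2-T22, H2-T23, B2m and Nlrc5, whose loci in the table hold other rows (an alternative chosen after seeing the data). The summed heavy chain ratio, 1.59, was 1.64 over rows with 1 symbol, 1.45 with equal sums and 1.58 with all class I chains of the lists. The number of genes called varied with the rule: 1 at q under 0.05, 2 at q under 0.1 (H2-Q4 added, q = 0.081) and 0 at q under 0.01. It was also 0 with p from the statistic and a normal distribution, 0 under the Benjamini-Yekutieli adjustment (which calls 0 rows in all, with H2-T23 at an adjusted p of 0.314, in a range over the alternatives from 0.0292 to 0.9999), and 0 without those 4 genes, where the called gene itself is left out. It stayed at 1 over rows of at least 1 FPKM (H2-T23 at 0.0292) and over rows with 1 symbol. Of the pathway rows, 15 were called (1.32% of all tested rows in either direction). The count was 18 at q under 0.1 (1.61% of all) and 16 over rows of at least 1 FPKM (1.52%). It was 6 at q under 0.01 (0.739%), 1 with the normal distribution (0.122%) and 0 under Benjamini-Yekutieli (0%). The 2 forms of the interferon core gave 3 and 6 promoters. No paired analysis was possible because the table holds 1 pooled value per group, and for the same reason leaving out each library was not run.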

Other observations

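Another 4 genes between H2-K1 and H2-M3 were called higher by the authors' test. They are named here after their values were seen: the ubiquitin-like gene Ubd (log2 fold change 3.04, q = 0.00676), the complement genes C2 (1.52, q = 0.0242) and C4b (1.15, q = 0.00676), and the heat shock gene Hspa1b (0.92, q = 0.0465), all from the authors' deposited table. The 8 class I heavy chain rows and B2m together made up 2.62% of the summed FPKM of all tested rows in MEK1-hi and 1.95% in MEK1-low. The row of Cd74, the invariant chain of class II, was marked by Cuffdiff as having too much data and has no test.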
